A study of Felis catus with 6 samples.

Results

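Chemokines are small secreted proteins that bind G protein-coupled receptors on leukocytes and draw the cells along a gradient. Senescent cells release several of them as part of the senescence-associated secretory phenotype. The receptor decides which cell responds, so the transcripts that senescent kidney cells hold bear on whether neutrophils, monocytes or T cells can be attracted. The 4 chemokine loci described here were chosen by name, with earlier results of these data known. They are CXCL8, CXCL10, CCL8 and LOC101096931. The authors' deposited table describes LOC101096931 as C-C motif chemokine 7, and it is called the CCL7 locus below. All 4 were found among the 633 genes of that table.

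The table covers 6 polyA RNA-seq libraries of PETCC2610, a feline kidney cell line. The DOX group has 3 libraries of cells made senescent with DOX, an abbreviation that the labels do not spell out. The DOX+PeptideE group has 3 libraries of cells that received DOX and peptide E, which the series title traces to a fermentation by Bifidobacterium adolescentis. Both groups therefore carry DOX, all libraries come from 1 cell line, and doses, times and the separation of the cultures are not given. Cells without DOX were not analysed here, so no value can be read as a return to the level before senescence.

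The table lists only genes that the authors called different between these same 6 libraries, with no unadjusted p above 0.0498 and no fold change smaller than 1.5 up or down on the authors' scale. A change of some size in these 4 genes is thus fixed by their presence in the table. The tests below ask only how far each change exceeded the spread between libraries. The table does not fix the direction, but the 4 genes and the gene lists below were chosen with earlier results of these data known. Counts of lower or passing members are therefore descriptions. The values are a normalized expression level with no stated unit, called the expression value here, and the read depth of the libraries is unknown. Of 17 kidney epithelial marker symbols 5 were listed. KRT18 was at 589 ± 70.3 and KRT7 at 415 ± 58.8 with DOX (SD, n = 3 each), while the tubular water channel AQP1 was at 2.98 ± 0.141 and the injury marker HAVCR1 at 1.21 ± 0.252 (SD, n = 3 each). None of 18 leukocyte markers and none of 13 endothelial and fibroblast markers was listed, and their levels were not analysed here.

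All 4 chemokines were lower with peptide E. CXCL8 fell by 26.2%, CXCL10 by 33.5%, CCL8 by 27.5% and the CCL7 locus by 52.2% in the mean expression value. The neutrophil attractant was thus accompanied by a T cell attractant and by a pair of monocyte attractants. Each of the 4 passed limma's threshold of 0.05 after Benjamini-Hochberg adjustment over the 499 listed genes tested, and in each all 3 peptide E libraries lay below all 3 DOX libraries. The tested genes had all been selected as different on these libraries, so the adjusted p are not false discovery rates over all expressed genes. Unadjusted limma p were 0.0211 for CXCL8, 0.00571 for CXCL10, 0.0145 for CCL8 and 0.0018 for the CCL7 locus. As background, 23.6% of the tested genes were lower and passed, and 32.7% of all listed genes were lower with groups that did not overlap. Among the 257 tested genes lower with peptide E, 45.9% passed, and among the 340 listed genes with a lower mean the groups did not overlap in 60.9%. A lower level in these libraries can come from fewer expressing cells or from less RNA per cell, which cannot be told apart in bulk RNA.

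**Figure D1:**
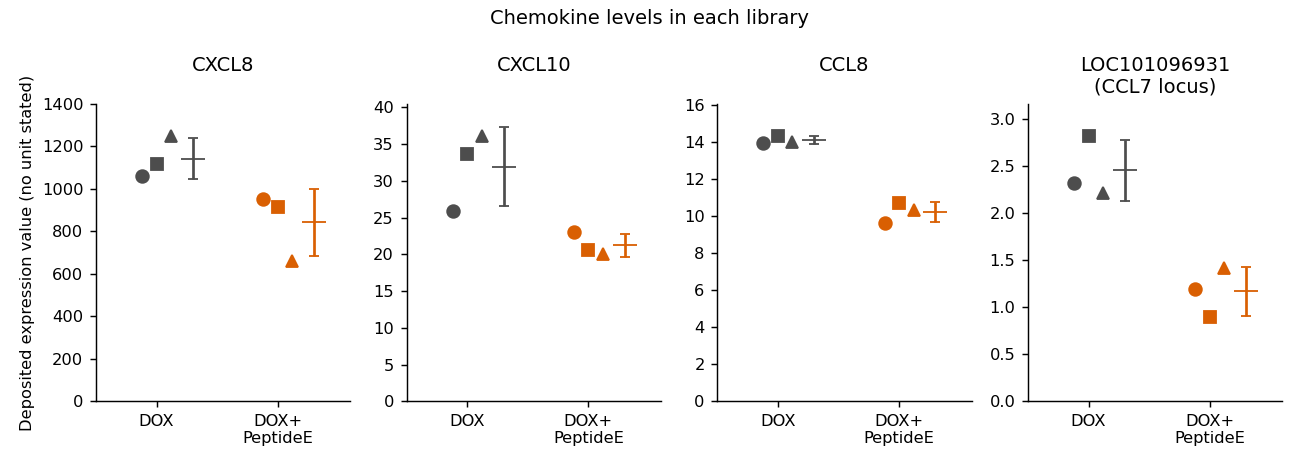
Deposited expression value (no unit stated) of CXCL8, CXCL10, CCL8 and LOC101096931, the CCL7 locus, in each library, with DOX in grey and DOX+PeptideE in orange. Circles, squares and triangles are replicates 1, 2 and 3, bars are mean ± SD (n = 3), and each axis starts at 0. In every panel the orange points lie below the grey ones, with the narrowest gap in CXCL8 (1061 against 953) and the widest relative gap in the CCL7 locus (2.21 against 1.42).

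CXCL8, also known as interleukin 8, acts through CXCR1 and CXCR2 and is the classical attractant of neutrophils. Its expression values were 1061, 1116 and 1251 in DOX replicates 1, 2 and 3. They were 953, 915 and 662 in peptide E replicates 1, 2 and 3. Replicates 1 and 2 with peptide E lay 16.6% and 19.9% below the DOX mean, whereas replicate 3 lay 42.1% below it, further than either of the others. The means were 1143 ± 98.1 and 843 ± 158 (SD, n = 3 each). On the log2(value + 1) scale limma estimated a log2 fold change of -0.45 (standard error 0.17, adjusted p = 0.0331). Without peptide E replicate 3 it was -0.29 (limma adjusted p = 0.107), and only the removal of peptide E replicate 1 left the call in place, at -0.55 (limma adjusted p = 0.00683).

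CXCL10 is induced by interferons and attracts activated T cells and natural killer cells through CXCR3. Its expression values were 25.9, 33.7 and 36.2 in DOX replicates 1, 2 and 3. With peptide E they were 23.1, 20.6 and 20.0 in the same order of replicates. On the deposited scale the spread lay mainly in the DOX group, where replicate 1 stood 19% below the group mean and close to the peptide E libraries. The coefficient of variation on this scale was 16.9% with DOX and 7.63% with peptide E. This was the reverse of CXCL8, for which it was 8.58% with DOX and 18.8% with peptide E. The means were 31.9 ± 5.39 and 21.2 ± 1.62 (SD, n = 3 each). limma gave a log2 fold change of -0.56 (standard error 0.17, adjusted p = 0.0137). The place of the CXCL10 spread depends on how the libraries are scaled. Library factors fitted to the authors' fold changes, described further below, moved its DOX mean to 35.09 (SD 6.08). They moved its peptide E mean to 19.45 (SD 3.245). Relative to the means, the spread then no longer lay mainly in the DOX group.

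CCL8, or monocyte chemoattractant protein 2, binds several CC receptors and attracts monocytes and other leukocytes. Its expression values were 14.0, 14.4 and 14.0 with DOX and 9.64, 10.7 and 10.3 with peptide E, in replicates 1, 2 and 3. It had the tightest groups of the 4 chemokines, with coefficients of variation of 1.5% and 5.27%, and its lowest DOX library was 1.31 times its highest peptide E library. The means were 14.1 ± 0.211 and 10.2 ± 0.539 (SD, n = 3 each). The log2 fold change from limma was -0.43 (standard error 0.15, adjusted p = 0.0254). limma draws each gene's variance towards a trend shared by the listed genes, so this standard error was close to those of CXCL8 and CXCL10 despite the tighter libraries.

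The CCL7 locus encodes a monocyte chemoattractant of the same family, whose receptors include CCR2. Its expression values were 2.32, 2.82 and 2.21 with DOX and 1.19, 0.90 and 1.42 with peptide E, in replicates 1, 2 and 3. The peptide E libraries lay 51.4%, 63.3% and 42% below the DOX mean, and the lowest DOX library was 1.56 times the highest peptide E library. The means were 2.45 ± 0.325 and 1.17 ± 0.261 (SD, n = 3 each). This locus had the lowest limma log2 fold change of the 4, at -0.67 (standard error 0.17, adjusted p = 0.00781). At such a low level the pseudocount sets the size of this fold change, which was -1.02 with a pseudocount of 0.1 and -0.27 with 5, with limma adjusted p of 0.00722 and 0.0116. With a pseudocount of 5 the locus had the smallest change of the 4, against -0.33 for CCL8, -0.45 for CXCL8 and -0.48 for CXCL10. The authors' deposited table gives the locus a log2 fold change of -1.34 with an unadjusted p of 0.0182 and an adjusted p of exactly 1, a value it gives to 160 genes.

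With 1 library left out, the CCL7 locus kept its limma call in all 6 fits, at adjusted p of 0.00249 to 0.0495. The authors' adjusted p ordered the genes otherwise than limma did, at 0.000397 for CXCL10, 0.00196 for CXCL8 and 0.0169 for CCL8. Their value for the CCL7 locus, given above, did not pass. The call of CXCL10 was lost without DOX replicate 3 (log2 fold change -0.46, adjusted p = 0.0798) and without peptide E replicate 2 (-0.54, adjusted p = 0.0555). CCL8 lost its limma call without DOX replicate 1, 2 or 3 or peptide E replicate 2 (adjusted p from 0.066 to 0.0951), although its log2 fold change stayed between -0.46 and -0.39 in all 6 fits. CXCL8 lost its call in 5 of 6 fits. Besides peptide E replicate 3 these left out DOX replicate 1, 2 or 3 or peptide E replicate 2, and gave log2 fold changes of -0.52 to -0.39 (limma adjusted p from 0.0656 to 0.138). The signs could not change in these fits, because the groups of the 4 genes did not overlap. The 2-sided exact permutation test of each gene alone gave p = 0.1, the smallest value that 3 against 3 libraries allow.

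**Figure D2:**
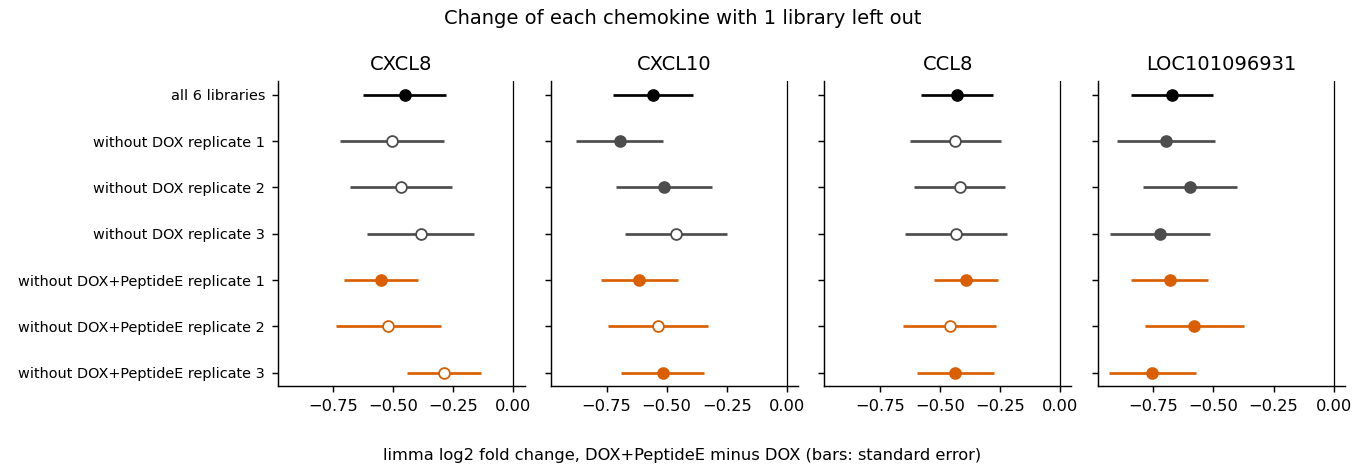
limma log2 fold change (DOX+PeptideE minus DOX, bars are standard errors) of the 4 chemokines with all 6 libraries and with each library left out in turn. Filled points have an adjusted p under 0.05 and open points do not. The points of the CCL7 locus, LOC101096931, are all filled, while CXCL8 moves from -0.55 without peptide E replicate 1 to -0.29 without peptide E replicate 3.

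The size of the changes depends on how libraries are scaled. The deposited means gave log2 ratios above the authors' log2 fold changes, by a median of 0.27 over the 196 listed genes whose 2 group means were both 5 or more. Library factors were therefore fitted that turn the deposited values into the authors' fold changes. With these factors the limma log2 fold changes were -0.73 for CXCL8 (adjusted p = 0.0214), -0.82 for CXCL10 (0.00732), -0.68 for CCL8 (0.00732) and -0.84 for the CCL7 locus (0.0025). The mean expression values were then 38% lower for CXCL8, 44.6% for CXCL10, 39.8% for CCL8 and 60.7% for the CCL7 locus, and the groups did not overlap in any of the 4. For CXCL8, CXCL10 and CCL8 the authors' deposited table lists -0.69, -0.85 and -0.74 on the log2 scale. The factors were fitted to fold changes on which these genes had been selected, so these calls are no independent check.

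Whether the 4 chemokines changed by different amounts was compared through ratios inside each library, which no scaling of a library can move. CXCL8 was 33.1 to 41.0 times CXCL10 in the DOX libraries and 33.1 to 44.4 times in the peptide E libraries. CXCL10 was 1.85 to 2.58 times CCL8 with DOX and 1.93 to 2.39 times with peptide E. For both pairs the range with peptide E covered or lay within that of DOX. The unit is not stated to be per transcript length, so these multiples describe the deposited values and are not molar ratios. The order CXCL8, CXCL10, CCL8, CCL7 locus held in all 6 libraries, and CXCL8 ranked 7th or 8th in level among the listed genes in each.

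The ratio of CCL8 to the CCL7 locus was the one that separated the groups. It was 5.09 to 6.33 with DOX and 7.28 to 11.9 with peptide E, with means of 5.82 ± 0.648 and 9.09 ± 2.46 (SD, n = 3 each). On the log2 scale it was 0.62 higher with peptide E, and the 9 differences between a peptide E library and a DOX library ran from 0.20 to 1.22. CXCL8 over the CCL7 locus was higher by 0.63, with 9 differences from -0.28 to 1.36, and CXCL10 over the CCL7 locus by 0.51, with differences from -0.22 to 1.04. In both, 8 of 9 differences were positive. The 2-sided exact permutation test of 3 against 3 libraries cannot go below 0.1, so no pair could pass 0.05. The CCL8 and CCL7 locus pair had an exact p = 0.1, the smallest possible, and the adjusted exact p over the 6 pairs was 0.4 for this pair and for the other two pairs with the CCL7 locus. These ratios used no pseudocount, and at the low values of the CCL7 locus their size depends on it. With 1 added to both values, CCL8 over the CCL7 locus was higher by 0.24 (exact permutation adjusted p = 0.6). CXCL8 over the CCL7 locus was then higher by 0.22 and CXCL10 over it by 0.12 (exact permutation adjusted p = 0.84 for both).

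Among CXCL8, CXCL10 and CCL8 no difference in the size of change was detected. The log2 ratio of CXCL8 to CXCL10 was higher by 0.12 with peptide E, with 9 differences from -0.31 to 0.42 (exact permutation adjusted p = 0.75). That of CXCL8 to CCL8 was higher by 0.01, with differences from -0.48 to 0.38 (exact permutation adjusted p = 1). That of CXCL10 to CCL8 was lower, at -0.11, with differences from -0.42 to 0.37 (exact permutation adjusted p = 0.84). These ranges do not show that the 3 genes changed alike, since they span changes about as large as the fold changes themselves.

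**Figure D3:**
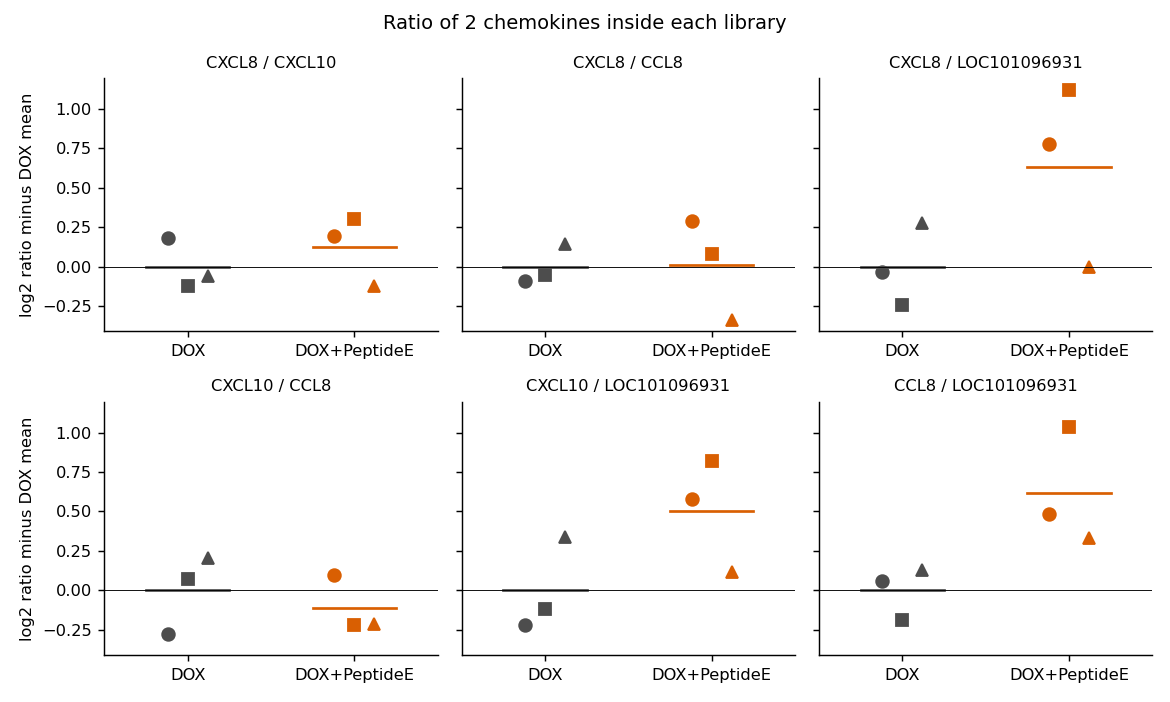
Log2 ratio of each pair of chemokines inside a library, minus the mean of the 3 DOX libraries, with DOX in grey and DOX+PeptideE in orange. Circles, squares and triangles are replicates 1, 2 and 3, and lines are group means. The 3 orange points lie above all grey points only for CCL8 over LOC101096931, the CCL7 locus, where the group means differ by 0.62.

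On the deposited scale the libraries did not order the chemokines alike. With peptide E, CXCL8 and CXCL10 were both highest in replicate 1 and lowest in replicate 3. CCL8 was lowest in replicate 1 and highest in replicate 2, and the CCL7 locus was lowest in replicate 2 and highest in replicate 3. With DOX, CXCL8 and CXCL10 were again ordered alike, lowest in replicate 1 and highest in replicate 3, while CCL8 and the CCL7 locus were both highest in replicate 2. Over the 257 tested genes with a lower mean, the median log2(value + 1) deviation from the DOX mean was -0.33, -0.42 and -0.51 in peptide E replicates 1, 2 and 3, the order also seen for CXCL8 and CXCL10. The part of this shared deviation in the order of CXCL8 and CXCL10 was not tested. The orders of CCL8 and the CCL7 locus depend on the scaling of the libraries. With the factors fitted to the authors' fold changes, CCL8 was 9.42, 10.3 and 8.31 in peptide E replicates 1, 2 and 3. Its lowest library was then replicate 3, as for CXCL8 and CXCL10. The CCL7 locus was then at 1.16, 0.863 and 1.14, highest in replicate 1. With DOX, CCL8 was then highest in replicate 3, at 15.7.

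Likeness of pattern was measured as the root mean square difference between log2(value + 1) deviations from each gene's mean over the 6 libraries, where 0 is the same pattern. It is a description, and all genes compared were selected on the same contrast. Likeness was computed on the deposited scale with a pseudocount of 1 only, so the ranks hold for that setting. At the low values of the CCL7 locus the pseudocount affects its deviations. Closest to CXCL8 were NT5C3A, a pyrimidine nucleotidase gene, at 0.05, TEX9 at 0.07 and CST6, a cysteine protease inhibitor gene, at 0.08. NT5C3A stood at 65.1, 76.5 and 82.2 with DOX and at 62.1, 59.4 and 42.5 with peptide E, again lowest in peptide E replicate 3. Closest to CXCL10 were the keratin gene KRT19 at 0.10, HORMAD1 at 0.11 and PRAP1 at 0.11. Closest to CCL8 were the sulfotransferase gene SULT1C4 and RANGRF and GPX3, the last a secreted glutathione peroxidase gene, at 0.05 to 0.06. Closest to the CCL7 locus were ECRG4, TRIM29 and SERPINB5, at 0.10 to 0.14. No chemokine was among the 3 closest genes of another. Among the 498 other tested genes CXCL10 ranked 57th in likeness to CXCL8, and CXCL8 ranked 18th in likeness to CXCL10. CCL8 ranked 26th in likeness to the CCL7 locus, and the CCL7 locus ranked 120th in likeness to CCL8 and 199th to CXCL8.

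Another chemokine, CCL1, which attracts leukocytes through CCR8, was listed in the table as well. Its expression values were 6.97, 5.72 and 7.46 with DOX and 4.38, 5.05 and 6.29 with peptide E, in replicates 1, 2 and 3. Peptide E replicate 3 lay above DOX replicate 2, so the groups overlapped. Its log2 fold change in limma was -0.31 (standard error 0.18, adjusted p = 0.13), and it was -0.55 (adjusted p = 0.0121) with the factors fitted to the authors' fold changes. The call for CCL1 thus depends on the scaling of the libraries.

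According to RefSeq's annotation of assembly F.catus_Fca126_mat1.0, CCL8, the CCL7 locus and CCL1 lie in 1 cluster on chromosome E1. Read along the protein-coding genes, the order is MCP-1 (the monocyte chemoattractant also called CCL2), the CCL7 locus, CCL8, LOC101099760 and CCL1. MCP-1 and LOC101099760 were not listed. CXCL8 and CXCL10 both lie on chromosome B1, and CXCL10 stands between CXCL11 and CXCL9, neither of which was listed. The 3 listed genes of the CC cluster were at 14.1 (CCL8), 6.72 (CCL1) and 2.45 (the CCL7 locus) with DOX, so genes of the cluster differed in level. On the deposited scale the adjacent CCL8 and CCL7 locus passed and CCL1 did not. Whether CCL1 changed by another amount than these genes was not tested. Neighbouring CC chemokines are related in sequence, and the values of CCL8 and the CCL7 locus are uncertain where reads could be shared. No source used here names the authors' build, so no coordinates are printed.

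The other chemokine ligands could not be described. Of 42 ligand symbols, 26 occur in the RefSeq table and 5 were listed, the 5 genes named above. All 5 had negative log2 fold changes and 4 passed, against 23.6% of tested genes that were lower and passed and 45.9% of the lower ones. Across all 499 tested genes 242 were listed higher and 257 lower, and the median limma log2 fold change was -0.22. None of 22 chemokine receptor symbols was listed, so CXCR1, CXCR2, CXCR3, CCR2 and CCR8 were not analysed here.

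Of 24 symbols for other leukocyte attractants and growth factors 7 were listed and 6 tested. All 6 had negative limma log2 fold changes, with a median of -0.43, and 5 passed, against 45.9% of all lower tested genes, whose median was -0.41. IL6, an inflammatory cytokine, had expression values of 29.7, 35.6 and 34.2 with DOX and 23.5, 22.4 and 27.8 with peptide E (limma log2 fold change -0.42, adjusted p = 0.0315). S100A4, a calcium-binding protein that can act on leukocytes once released, had values of 274, 249 and 249 in the DOX libraries and of 188, 153 and 143 in the peptide E libraries (limma log2 fold change -0.68, adjusted p = 0.00741). GDF15, IL18 and SPP1, the gene of the macrophage attractant osteopontin, also fell, with limma log2 fold changes of -0.49, -0.45 and -0.36, and the groups of IL18 overlapped. CSF3, the growth factor of neutrophils, was at 3.21 and 2.29 with overlapping groups (limma adjusted p = 0.093). With the factors fitted to the authors' fold changes CSF3 passed (limma adjusted p = 0.0121). HGF was too low for the filter, with 0.973 and 0.62. In the fit without the filter HGF passed (limma adjusted p = 0.0263), and its groups did not overlap. Of the 5 passing genes only S100A4 passed in all 6 fits with 1 library left out. IL6, GDF15, IL18 and SPP1 lost their limma calls without peptide E replicate 2 (adjusted p of 0.125, 0.144, 0.0933 and 0.0793), without DOX replicate 3 (0.12, 0.125, 0.168 and 0.124), and each without 1 or more other libraries: IL6 without DOX replicate 2, GDF15 without DOX replicate 1, IL18 without DOX replicate 1 or peptide E replicate 3, and SPP1 without DOX replicate 1 or 2 or peptide E replicate 1. IL6 and CXCL8 are named in the series title, and whether they were chosen on these samples is not stated.

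Receptors for interleukins were found through their descriptions. IL1R2, a decoy receptor that binds interleukin 1 without signalling, had means of 0.787 ± 0.11 in the DOX and 0.34 ± 0.1 in the peptide E libraries (SD, n = 3 each), below the filter. In the fit without the filter IL1R2 passed (limma adjusted p = 0.0119), and its groups did not overlap. IL1RL1, the receptor of interleukin 33, had means of 2.20 and 1.79 with groups that overlapped (limma adjusted p = 0.272).

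Genes that act upstream of chemokine transcription were scarce in the table. Of 34 symbols for inducers and transcription factors of the NF-kB and AP-1 routes, FOS and EGR1 were listed, and both rose. FOS, a subunit of AP-1, had values of 6.59, 6.46 and 7.39 with DOX and 11.6, 14.7 and 17.6 with peptide E (limma log2 fold change 0.98, adjusted p = 0.0051). EGR1, an immediate early transcription factor, had values of 6.34, 6.42 and 6.17 in the DOX libraries and of 12.4, 15.6 and 21.4 in the peptide E libraries (limma log2 fold change 1.23, adjusted p = 0.00315). As background, 47.5% of the tested genes were higher and passed. Of the 242 tested genes with a positive log2 fold change 237 passed, so passing sets FOS and EGR1 little apart from them. For both genes the highest peptide E library on the deposited scale was replicate 3. On that scale this library held the group's lowest CXCL8 and CXCL10, its highest CCL7 locus value and a middle value of CCL8. With the factors fitted to the authors' fold changes, replicate 3 held the lowest CCL8 as well, at 8.31. The CCL7 locus was then highest in replicate 1, at 1.16 against 1.14 in replicate 3. Of 38 interferon pathway and interferon-induced symbols, a list that does not hold CXCL10, ISG15 alone was listed. The product of ISG15 is a ubiquitin-like protein. Its transcript fell, from 2131, 1674 and 2099 with DOX to 1595, 1174 and 990 with peptide E (limma log2 fold change -0.67, adjusted p = 0.0118). Leaving out DOX replicate 1 or peptide E replicate 2 ended this call (limma adjusted p = 0.0523 and 0.0553).

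**Figure D4:**
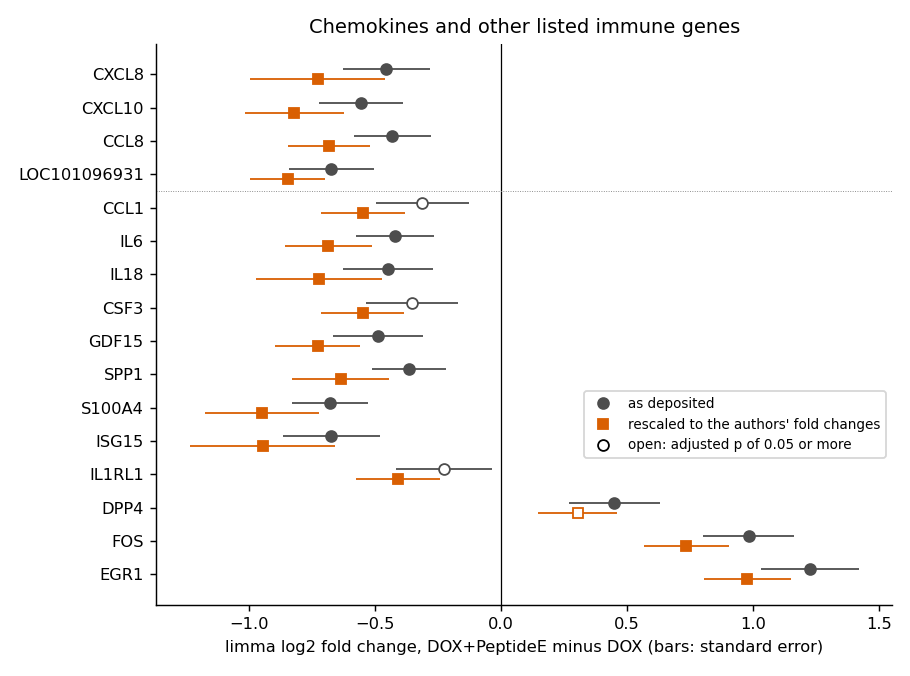
limma log2 fold change (DOX+PeptideE minus DOX, bars are standard errors) of the 4 chemokines above the dotted line and of CCL1 and other listed immune genes below it, on the deposited scale (grey circles) and after rescaling to the authors' fold changes (orange squares). Open symbols have an adjusted p of 0.05 or more. CCL1, CSF3 and IL1RL1 are open on the deposited scale only, and DPP4 is open after rescaling only.

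DPP4, a membrane peptidase that trims the amino terminus of CXCL10 and other chemokines, was the only listed gene of 22 symbols for chemokine processing, binding and mRNA decay. Its expression values were 0.87, 0.90 and 0.62 with DOX and 0.96, 1.51 and 1.99 with peptide E, in replicates 1, 2 and 3. The groups did not overlap, and the limma log2 fold change was 0.45 (adjusted p = 0.0396). With the factors fitted to the authors' fold changes it was 0.31 (limma adjusted p = 0.0741), and the limma call was lost in 5 of 6 fits with 1 library left out, at adjusted p of 0.0576 to 0.127. The direction of DPP4 was opposite to that of CXCL10, but its call does not hold across scalings.

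Some markers of the kidney epithelium also fell. KRT7, KRT18 and KRT19 passed out of 5 listed markers, against 23.6% of tested genes that were lower and passed and 45.9% of the lower ones, while AQP1 (limma adjusted p = 0.0897, with groups that did not overlap) and HAVCR1 (0.405, with overlapping groups) did not pass. With the factors fitted to the authors' fold changes AQP1 passed (limma adjusted p = 0.011) and HAVCR1 did not (0.0817). After median-centring both passed (limma adjusted p = 0.00584 and 0.0145), so these calls depend on the scaling. KRT7 and KRT19 had calls that were lost without DOX replicate 3 or peptide E replicate 2 among others. The part of these markers in the chemokine values was not tested. Level also moved with direction among the listed genes. All 37 tested genes with a mean expression value of at least 100 were lower, with a median limma log2 fold change of -0.43 and quartiles of -0.51 and -0.38, and CXCL8 at -0.45 lay between these quartiles. Of 111 genes with a mean from 10 to 100, the range of CXCL10 and CCL8, 76 were lower. Of 252 tested genes with a mean under 5, the range of the CCL7 locus, 101 were lower. Ranks from the lowest log2 fold change among the 499 tested genes were taken with a pseudocount of 1. The CCL7 locus stood 27th, CXCL10 56th, CXCL8 102nd and CCL8 113th.

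**Figure D5:**
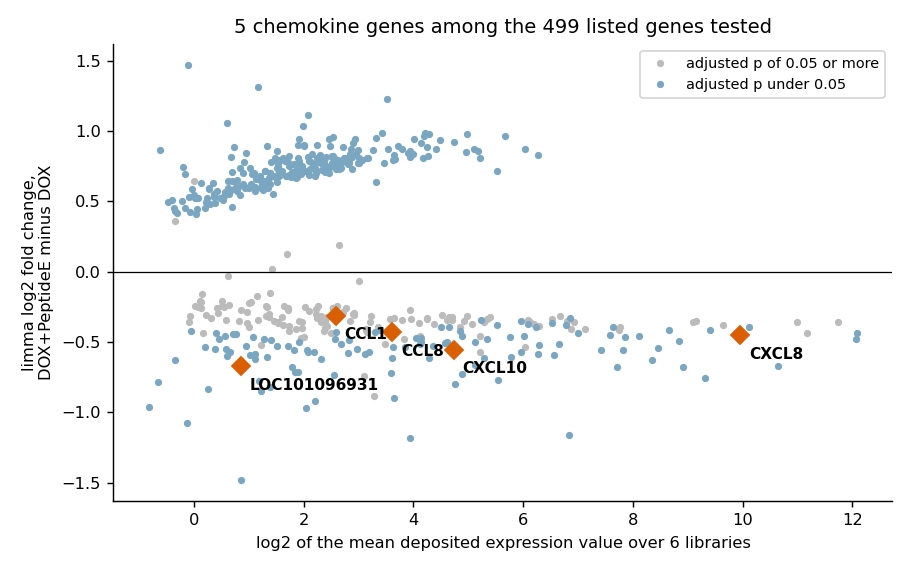
limma log2 fold change (DOX+PeptideE minus DOX) against the log2 of the mean deposited expression value for the 499 listed genes tested, blue where the adjusted p is under 0.05 and grey otherwise, with CCL1 and the 4 chemokines as orange diamonds. The 5 chemokines lie among the lower genes, from -0.31 for CCL1 to -0.67 for LOC101096931, and CXCL8 lies in the range of high levels where the 37 genes with a mean of at least 100 are all lower.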

How the data were processed

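The deposited table holds, per gene and library, a normalized expression signal computed by the authors, whose unit is not stated. It also holds the authors' fold change, its log2 value and the authors' p-values. Reads were handled with fastp 0.19.5 and FastQC 0.11.9, per the submitters' processing notes, and RSEM appears in the deposited table's name. Aligner, build, annotation and strand setting: not given in the sources used here. Libraries were grouped by title.

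Values were used as log2(value + 1). The 499 genes whose mean reached 1 in either group were fitted in R 4.3.3 using limma 3.58.1 with a variance trend. Benjamini-Hochberg adjustment ran over these 499 genes. The script was tested on simulated data. For limma these were set at higher levels than the real values and run without the filter. That test covers neither values as low as those of the CCL7 locus nor the selection of the listed genes. Replicates share only a number. Because the authors do not say how cultures were separated, p-values measure the spread between these libraries. Pair ratios used values without a pseudocount and a 2-sided exact permutation test. Named were the 4 chemokines, listed members of the gene lists, genes described as chemokine, interleukin or interferon, and the 3 genes closest in pattern to each chemokine. The 4 genes and the lists were chosen with earlier results of these data known. All 633 symbols were found in the RefSeq table. Sequences were not used here.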

Additional observations from a re-analysis of the deposited data

How the results depend on the processing

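The 4 chemokines kept their limma call in each planned setting that used all libraries, with log2 fold changes of -0.75 to -0.45 for CXCL8, -0.85 to -0.48 for CXCL10, -0.73 to -0.33 for CCL8 and -1.02 to -0.27 for the CCL7 locus, which a filter at a mean of 5 removes. Their direction could not change in these settings, because the groups did not overlap and the rescalings moved the tested genes further down. Median-centring also rests on genes that were all selected as different. With 1 library left out the log2 fold changes were -0.55 to -0.29 (CXCL8), -0.70 to -0.46 (CXCL10), -0.46 to -0.39 (CCL8) and -0.75 to -0.58 (CCL7 locus). The number of listed genes past the threshold was 355, of them 118 lower, and with 1 library left out 180 to 413, of them 38 to 173 lower, the lowest without peptide E replicate 2. The lower genes were also fewer without DOX replicate 1 (49) and DOX replicate 3 (44). It was 203 with the filter at a mean of 5, where fewer genes are tested. The lower genes numbered 250 after median-centring and 246 with the recovered factors, which moved the median of the tested genes by -0.30 and -0.22. Higher genes made up 66.8% of the calls as deposited, 42.9% after median-centring and 48.1% with the recovered factors. The number of genes whose groups did not overlap was 482, and 497 to 571 with 1 library left out.

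The log2 ratio of CXCL8 to CCL8, 0.01 higher with peptide E, was -0.024 with 1 added to both values and -0.13 to 0.19 with 1 library left out, and the cause was not tested. The other pairs kept their sign in each setting run. HAVCR1, at -0.16, was 0.0040 without peptide E replicate 1, the highest of its leave-one-out values, which began at -0.28. Of 232 further values for named genes, 189 kept direction and call, 33 lost the call, 9 gained it and 1 changed sign. With a replicate block 362 genes passed, 124 of them lower, and the block changed no call among the 4 chemokines. The deviations of same-numbered libraries correlated at 0.34, -0.04 and -0.09, so the numbers were not taken as pairs. The unknown depth limits what can be said of the CCL7 locus in particular, which has the lowest values.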
